A study of Mus musculus with 6 samples.

Results

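GABA-A receptors are the chloride channels that carry most fast inhibition in the cerebral cortex, and the 7 subunit genes described here are Gabra2, Gabra3, Gabra4, Gabra5, Gabrb1, Gabrb2 and Gabrd. They were taken by symbol from the 32531 gene rows of the count files, and all 7 were present. The files hold 12 further genes of the family, which enter only as counts. The libraries came from cerebral cortex of adult, untreated mice that carry the Htr4-EGFP/Rpl10a transgene (line ES1299), in which Htr4 regulatory sequence drives an EGFP-tagged ribosomal protein. All 6 libraries came from this line. The 3 IP libraries hold RNA captured with tagged polysomes by antibodies against EGFP, and the 3 input libraries are the reference. The study's stated subject is pyramidal neurons, but the tag marks whichever cells use the Htr4 sequence.

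Each GABA-A receptor is a ring of subunits around a chloride pore. Alpha subunits set much of the channel's kinetics and drug response, beta subunits complete the GABA-binding sites, and a gamma or delta subunit usually fills the remaining place. Receptors with alpha5 or delta subunits sit largely outside synapses and carry tonic inhibition, while those with alpha2 or alpha3 are mostly synaptic.

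The promoter windows shown are those of the genes on which the results turn: Gabra5 and Gabra3, which went in opposite directions, Gabrb2, the most abundant member, and the adjoining pair Gabra4 and Gabrb1. They run from 250 bases before to 50 after a RefSeq start site (build GRCm38.p6), in the gene's own direction, and 6 of the 7 members have such a window. Gabra3 and Gabrb1 have 2 such windows each and Gabrb2 has 3, for different start sites, and only 1 of each gene is shown. Capitals mark exact matches, on either strand, to 3 motifs that do not overlap each other. The TATA box was searched as TATAAA. The SP1 GC box was searched as GGGCGG. The cAMP response element was searched as TGACGTCA.
Gabra5, chr7:57510010-57510309, minus strand: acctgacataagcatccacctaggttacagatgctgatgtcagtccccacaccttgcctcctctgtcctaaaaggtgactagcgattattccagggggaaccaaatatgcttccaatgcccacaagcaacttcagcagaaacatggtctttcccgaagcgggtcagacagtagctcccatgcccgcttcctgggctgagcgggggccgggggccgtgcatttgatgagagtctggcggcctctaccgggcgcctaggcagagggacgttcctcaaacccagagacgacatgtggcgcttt
Gabra3, chrX:72656870-72657169, minus strand: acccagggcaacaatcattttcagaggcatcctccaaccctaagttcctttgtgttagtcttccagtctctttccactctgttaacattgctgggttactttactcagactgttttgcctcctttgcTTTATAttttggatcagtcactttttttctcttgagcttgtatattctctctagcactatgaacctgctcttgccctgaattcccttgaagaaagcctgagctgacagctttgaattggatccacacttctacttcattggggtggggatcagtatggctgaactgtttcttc
Gabrb2, chr11:42420190-42420489, plus strand: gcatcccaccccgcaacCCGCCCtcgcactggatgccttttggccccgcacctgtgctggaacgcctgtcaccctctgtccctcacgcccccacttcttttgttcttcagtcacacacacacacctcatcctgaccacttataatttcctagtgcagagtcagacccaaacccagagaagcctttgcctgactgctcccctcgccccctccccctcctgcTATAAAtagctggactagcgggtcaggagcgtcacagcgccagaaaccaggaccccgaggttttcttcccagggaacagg
Gabra4, chr5:71658259-71658558, minus strand: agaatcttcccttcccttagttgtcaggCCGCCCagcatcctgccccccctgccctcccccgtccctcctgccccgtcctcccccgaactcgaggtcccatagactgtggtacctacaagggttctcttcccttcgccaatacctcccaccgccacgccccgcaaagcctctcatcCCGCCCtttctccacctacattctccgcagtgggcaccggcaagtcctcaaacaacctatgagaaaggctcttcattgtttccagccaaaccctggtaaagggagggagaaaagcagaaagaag
Gabrb1, chr5:71657671-71657970, plus strand: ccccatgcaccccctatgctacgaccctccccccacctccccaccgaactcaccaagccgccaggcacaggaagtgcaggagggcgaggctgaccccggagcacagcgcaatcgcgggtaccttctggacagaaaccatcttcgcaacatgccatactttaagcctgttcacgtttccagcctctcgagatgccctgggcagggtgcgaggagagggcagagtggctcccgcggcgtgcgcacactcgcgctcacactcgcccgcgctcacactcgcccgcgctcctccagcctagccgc

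Neither the Gabra5 window nor the Gabrb1 window held any of these motifs. The Gabra3 window held the TATA box letters once, read on the opposite strand and 123 bases before the start. In the Gabrb2 window the same letters stood 30 bases before the start on the gene's own strand. The Gabra3 window that is not shown overlaps the shown Gabra3 window and holds the same TATA site, at -235 from its own start. The Gabrb2 windows not shown held none of the motifs. Over all 32851 windows of this length, the TATA box letters were found in 13.6%, the GC box in 35.7% and the cAMP response element in 1.79%. The GC box stood at 2 places in the Gabra4 window and at 1 in that of Gabrb2, and none of the 5 windows held the cAMP response element. The Gabra3 window had 0 CG dinucleotides, as did 5.43% of all windows, against 13 in that of Gabra5 and 25 in that of Gabrb1. These matches describe the letters only.

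The members lie in 5 places of the genome (GENCODE M21, GRCm38). Gabra2 (70957597 to 71095849), Gabra4 (71569749 to 71658308) and Gabrb1 (71658113 to 72149037) form a cluster on chromosome 5. Gabra4 and Gabrb1 stand head to head on opposite strands, and their RefSeq start sites are 387 bases apart, each inside the other's transcript. Gabra5 is on chromosome 7 (57407672 to 57510059), Gabrb2 on chromosome 11 (42419757 to 42629028), Gabrd on chromosome 4 (155384980 to 155398112) and Gabra3 on the X chromosome (72432681 to 72656848). Their merged exons span 2.88 kb for Gabrd, 2.97 kb for Gabra5, 3.92 kb for Gabra3, 6.08 kb for Gabra4, 6.36 kb for Gabrb2, 7.64 kb for Gabra2 and 13.8 kb for Gabrb1. The strand setting of the counting is not given in the sources used here, so reads on exon bases shared with another gene cannot be assigned. Such bases made up 4.98% of the exons of Gabra5, under 1% of those of Gabra4 and Gabrb1 (46 bases), and 0 of those of the other 4.

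Between 37696125 and 52360452 reads fell on genes in the input libraries, and between 53147173 and 67559533 in the IP libraries. Htr4 rose from 7.88 to 19.9 CPM (reads of a gene relative to its library's scaled read total) in IP (edgeR adjusted p = 5.7e-05). All 10 astrocyte, 10 oligodendrocyte, 7 oligodendrocyte precursor and 9 microglial markers fell in IP. The summed astrocyte level ranged from 3954 to 4553 CPM in input and from 822 to 1008 CPM in IP. Most of that sum was the marker Slc1a2, with a mean of 3647 CPM in input and 806 CPM in IP. The median log2 fold change of the 10 astrocyte markers was -3.46. Excitatory markers were present throughout, with Slc17a7 at 434 CPM in input and 549 CPM in IP. All 7 layer 5 pyramidal tract markers and all 5 layer 6 corticothalamic markers rose (Crym is in both lists). Of the 4 layer 4 markers 1 rose (Kcnab3) and 2 fell, Rorb from 322 to 34.9 CPM. Of the 10 striatal projection neuron markers 8 rose and 1 fell, and their summed level ranged from 834 to 933 CPM in input and from 1512 to 1878 CPM in IP. The part of striatal RNA in the subunit levels was not tested. Libraries of one group differed by 23.2 to 68.8 times the sampling noise (chi-square per degree of freedom), so none was a copy. In such bulk RNA, fewer cells of a type and less RNA per cell cannot be told apart.

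All 7 members passed the filter on low counts. Gabra5 rose in IP, Gabra3, Gabrb2 and Gabrb1 fell, and Gabra2, Gabra4 and Gabrd did not pass the test (edgeR quasi-likelihood test, Benjamini-Hochberg adjusted over 16506 genes). Among all genes tested, 21.3% were called higher and 23.4% lower, 44.8% in all. The 1 higher and 3 lower of 7 members are therefore near the background share. The members' median log2 fold change was 0.08, against -0.02 over all genes.

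**Figure D1:**
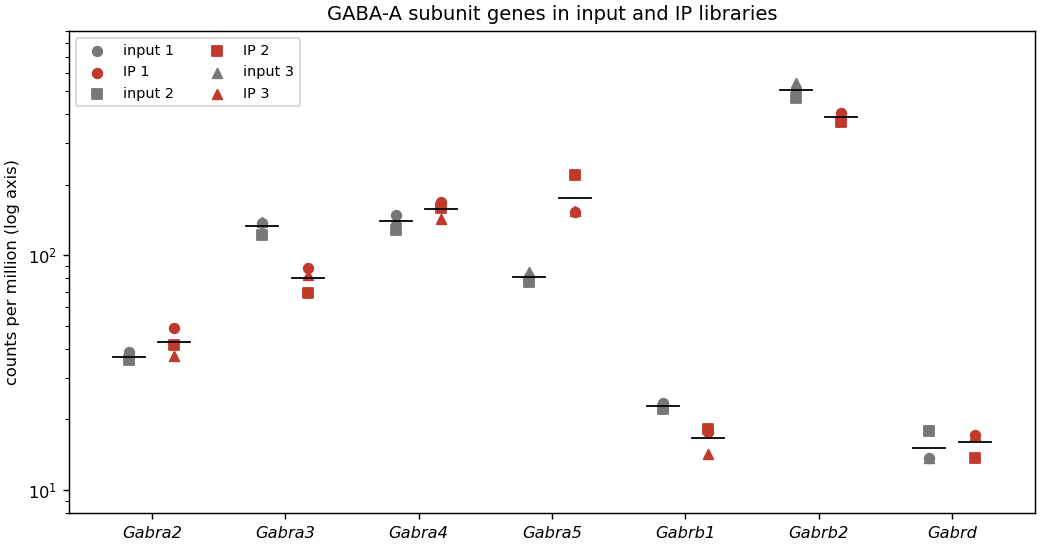
CPM of the 7 subunit genes (log axis) in each input (grey) and IP (red) library, with the replicate number as the symbol and the group mean as a line. Gabra5 is higher in every IP library and Gabra3, Gabrb1 and Gabrb2 are lower, while the groups overlap for Gabra2, Gabra4 and Gabrd.

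Gabra5 encodes the alpha subunit of extrasynaptic receptors that are rich in hippocampus and in deep cortical layers. It had 81.0, 76.7 and 85.0 CPM in input replicates 1 to 3 and 153.6, 220.2 and 154.6 CPM in IP replicates 1 to 3. The groups did not overlap, IP replicate 2 stood above the other IP libraries, and the inputs lay close together. The rise was 2.18-fold (log2 fold change 1.12, SE 0.14, edgeR adjusted p = 5.4e-05). Within lanes 1, 2 and 3, each of which held 1 input and 1 IP library, the log2 ratio was 0.92, 1.52 and 0.86. Without IP replicate 2 the log2 fold change was 0.94 (edgeR adjusted p = 2.3e-05). The 592 tested genes of like length and GC content had a median log2 fold change of 0.17.

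IP replicate 2 also held more RNA of dentate gyrus markers, a part of the hippocampus. Prox1, a transcription factor gene of dentate granule cells, had 78.1, 192.3 and 69.3 CPM in IP replicates 1 to 3. In input replicates 1 to 3 it had 39.6, 49.7 and 29.5 CPM. The synaptic protein gene C1ql2 had 8.14, 22.1 and 5.76 CPM in IP and 0.790, 1.53 and 0.737 CPM in input. The desmosome gene Dsp had 0.556, 13.4 and 0 CPM in IP and 0.245, 1.15 and 0 CPM in input. Input replicate 2 was thus also the highest input for Prox1, C1ql2 and Dsp, while it was the lowest input for Gabra5. Of the 7 hippocampal markers listed, 4 rose and 0 fell. Dsp did not pass the test (edgeR adjusted p = 0.12). Zbtb20 and Neurod1 were lower in IP without passing (log2 fold changes -0.53 and -0.28, and -2.66 and -0.54 within lane 3). The summed level of the 7 ranged from 164 to 233 CPM in input and was 372, 463 and 242 CPM in IP replicates 1 to 3. Of that sum, Wfs1 alone gave 226, 137 and 130 CPM in IP replicates 1 to 3. None of the 7 was at 0 over the IP libraries. The part of hippocampal RNA in the level of Gabra5 was not tested. Within lane 3, on the log2 scale, the difference of IP from input was 0.86 for Gabra5, 1.23 for Prox1, 2.97 for C1ql2 and 0.56 for the summed hippocampal level, and Dsp had 0 reads in both libraries. Lane 2 gave the highest ratio for 6 of the 7 hippocampal markers, for 2 of the 7 layer 5 pyramidal tract markers and for 2 of the 5 layer 6 corticothalamic markers. Summed levels of other lists also peaked in lane 2. Their log2 ratios in lanes 1 to 3 were 0.12, 0.46 and 0.06 for excitatory pyramidal markers. Those for layer 5 pyramidal tract markers were 1.06, 1.27 and 1.24. Lane 2 was the lowest for the summed layer 6 corticothalamic, striatal, interneuron and thalamic markers.

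**Figure D2:**
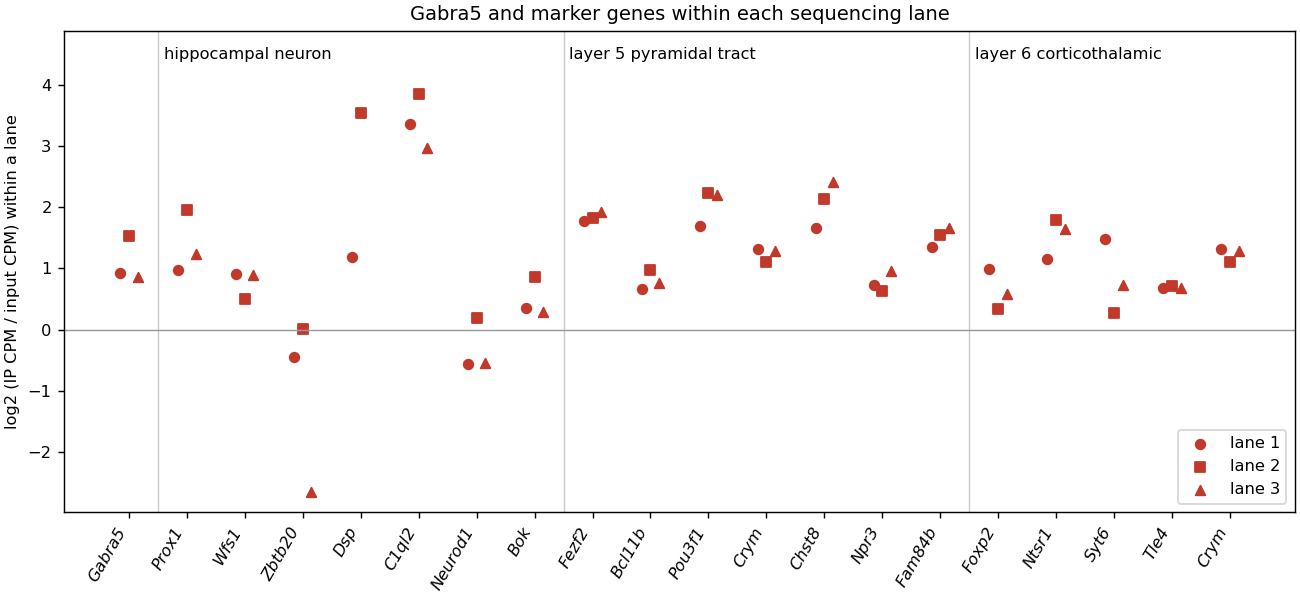
Log2 ratio of IP to input CPM within each of the 3 sequencing lanes for Gabra5 and for all listed hippocampal, layer 5 pyramidal tract and layer 6 corticothalamic markers. Lane 2 is the highest for Gabra5 and 6 of 7 hippocampal markers, and the deep-layer markers have no single highest lane; Dsp has no point in lane 3, where both libraries had 0 reads.

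Gabra3 encodes the alpha subunit that marks many synaptic receptors of deep cortical layers and of the thalamic reticular nucleus. It had 137.1, 122.6 and 139.1 CPM in input and 88.4, 68.8 and 82.6 CPM in IP replicates 1 to 3. Every IP library lay below every input, and IP replicate 2 was the lowest. The level fell by 0.73 on the log2 scale (SE 0.11, edgeR adjusted p = 0.00026), which is 1.66-fold, and by 0.63, 0.83 and 0.75 within lanes 1 to 3. Genes of like length and GC content (594 of them) had a median log2 fold change of 0.11.

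The ratio of Gabra5 to Gabra3 reads within a library does not depend on how library totals are scaled. It was 0.591, 0.626 and 0.611 in input and 1.74, 3.20 and 1.87 in IP replicates 1 to 3. Gabra3 had the more reads in every input and Gabra5 in every IP library. The ratio was 3.58-fold higher in IP (log2 difference 1.84). Its exact permutation p, two-sided, was 0.1, which no comparison of 3 with 3 libraries can go below. The pair, a member that rose and a member that fell, was chosen with earlier results of these data known. This p therefore adds no separate support to the 2 fold changes. Without IP replicate 2 the log2 difference was 1.57.

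Gabra2 encodes an alpha subunit found at synapses on cell bodies and axon initial segments. It had 38.6, 35.9 and 36.2 CPM in input and 48.8, 41.7 and 37.3 CPM in IP, and the groups overlapped. Its log2 fold change was 0.21 (SE 0.13, edgeR adjusted p = 0.20). Gabra4, whose product pairs with delta in extrasynaptic receptors of thalamus, striatum and dentate gyrus, had 148.6, 128.8 and 143.0 CPM in input and 168.4, 159.5 and 142.6 CPM in IP. Its log2 fold change was 0.16 (SE 0.10, edgeR adjusted p = 0.20), and IP replicate 3 lay within the input range. Both passed when library trends with gene length and GC content were removed, at log2 fold changes of 0.38 (edgeR adjusted p = 0.017) for Gabra2 and 0.25 (edgeR adjusted p = 0.030) for Gabra4. With library totals as the only scaling, Gabra4 passed as well (log2 fold change 0.26, edgeR adjusted p = 0.047).

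Gabrb2 encodes the beta subunit of the most common cortical receptors. It had 507.8, 467.3 and 539.5 CPM in input and 402.7, 370.4 and 395.1 CPM in IP replicates 1 to 3. All IP libraries lay below all inputs. The level fell by 0.37 on the log2 scale (SE 0.08, edgeR adjusted p = 0.0036), with log2 ratios of -0.33, -0.34 and -0.45 within lanes 1 to 3. With a mean-based length and GC correction it was not called (log2 fold change -0.02, edgeR adjusted p = 0.86). That correction moved the median of all genes to 0.31 and the share of calls that were higher in IP from 47.7% to 73.8%.

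Gabrb1 encodes a beta subunit that is also made by astrocytes. It had 23.4, 22.1 and 23.1 CPM in input and 17.7, 18.1 and 14.3 CPM in IP, and the groups did not overlap. The level fell by 0.45 on the log2 scale (SE 0.15, edgeR adjusted p = 0.024). The call ended when input replicate 1, 2 or 3 was left out (edgeR adjusted p of 0.083, 0.058 and 0.079 in turn) or IP replicate 3 (edgeR adjusted p = 0.079). Correction for length and GC content ended it too (log2 fold change -0.10, edgeR adjusted p = 0.59), as did scaling by library totals alone (-0.36, edgeR adjusted p = 0.072). The sign turned with the mean-based correction (log2 fold change 0.07). Gabrb1 has the longest exons of the members, and the 183 tested genes of like length and GC content had a median log2 fold change of -0.30. The part of astrocyte RNA, whose markers fell as given above, was not tested.

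Gabra4 and Gabrb1, the head-to-head pair, thus had different outcomes in the test. The log2 ratio of Gabra4 to Gabrb1 reads was 2.66, 2.54 and 2.63 in input and 3.25, 3.14 and 3.32 in IP replicates 1 to 3, with no overlap. It was higher in IP by 0.62 (exact permutation p = 0.1, two-sided, again the lowest attainable), and by 0.35 after the length and GC correction. This ratio was chosen after its values were seen.

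Gabrd encodes the delta subunit of extrasynaptic, neurosteroid-sensitive receptors. It had 13.7, 17.9 and 13.7 CPM in input and 17.1, 13.7 and 17.2 CPM in IP. Replicate 2 was high in input and low in IP, and the groups overlapped. Its log2 fold change was 0.08 (SE 0.17, edgeR adjusted p = 0.73), and the within-lane log2 ratios were 0.32, -0.38 and 0.33. The direction turned with the length and GC correction (log2 fold change -0.18, edgeR adjusted p = 0.41).

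**Figure D3:**
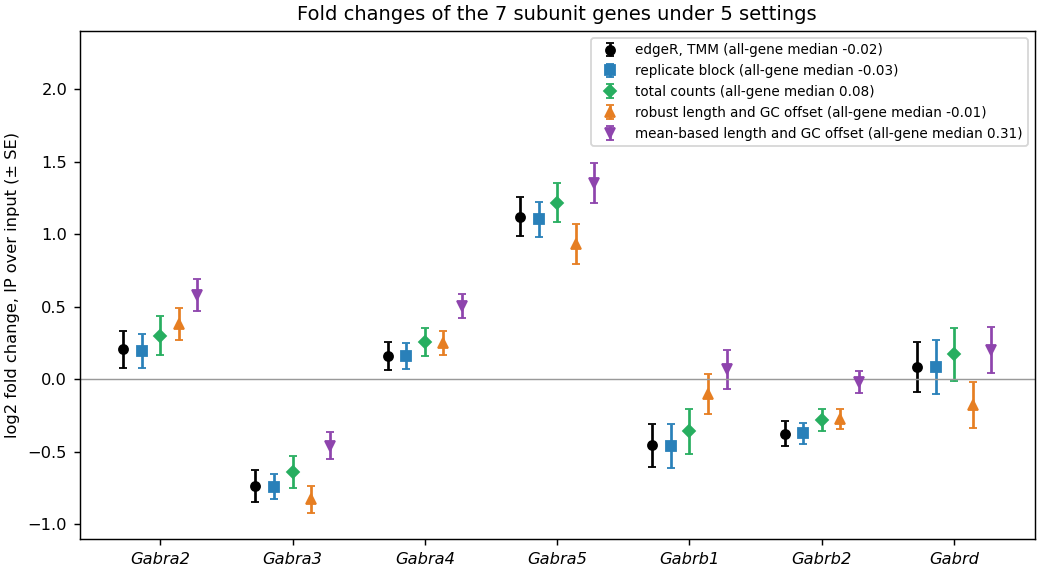
Log2 fold change of each subunit gene, IP over input, with its SE, under the edgeR fit and 4 alternatives, with the median of all genes under each given in the legend. Gabra5 stays between 0.93 and 1.35 and Gabra3 between -0.83 and -0.46, while Gabrb1 and Gabrd change sign.

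Reads per member ran from 504 for Gabrd to 26979 for Gabrb2 in a library. Counting alone gives a coefficient of variation of 0.662% for Gabrb2 and 3.80% for Gabrd in input. The observed values over the 3 inputs were 7.17% and 16.2%, so the spread between libraries exceeded counting error. The exception was Gabrb1 in input, with 3.15% observed and 3.11% from counting. Gabra5 in IP had the widest spread of the members, at 21.7%.

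Levels of different genes were compared as CPM per kilobase of merged exon. In input the order was Gabrb2 at 79.4 ± 5.69, Gabra3 at 33.9 ± 2.30, Gabra5 at 27.2 ± 1.40, Gabra4 at 23.0 ± 1.68, Gabrd at 5.25 ± 0.851, Gabra2 at 4.83 ± 0.196 and Gabrb1 at 1.65 ± 0.0521 CPM per kilobase (SD, n = 3). Only the neighbours Gabrd and Gabra2 overlapped in their ranges. In IP, Gabrb2 stood at 61.2 ± 2.66 CPM per kilobase and Gabra5 came next at 59.2 ± 12.8, with ranges that overlapped (SD, n = 3). Gabra4 followed at 25.8 ± 2.16, Gabra3 at 20.4 ± 2.56, Gabra2 at 5.57 ± 0.763, Gabrd at 5.57 ± 0.679 and Gabrb1 at 1.21 ± 0.152, where Gabra2 and Gabrd overlapped. With the longest transcript as the length, Gabra4 came before Gabra5 and Gabra2 before Gabrd in input, and the IP order was the same. With the coding length, Gabrb1 came before Gabrd in input as well, at 16.1 and 11.2 CPM per kilobase.

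Summed over the 7 genes, the level was 175 ± 9.95 CPM per kilobase in input and 179 ± 8.56 in IP (SD, n = 3, exact permutation p = 0.6). Gabra5 made up 15.5% ± 0.206 of it in input and 32.9% ± 5.71 in IP, Gabra3 19.3% ± 0.306 and 11.4% ± 1.81, and Gabrb2 45.3% ± 0.820 and 34.3% ± 2.87 (SD, n = 3). Of the 7 shares, which add up to a fixed whole, 6 did not overlap between the groups, that of Gabrd being the exception. In CPM, 4 of the 7 members did not overlap, against 56.1% of all genes tested. For each of the 6 the exact permutation p was at its lower limit of 0.1, or 0.117 adjusted over the 7 shares. The differences of Gabra2 and Gabra4, 0.353 and 1.26 percentage points, were 0.123 and 0.717 without IP replicate 1, and 0.0958 and 0.284 as shares of the whole family (exact permutation p = 0.4 for each).

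**Figure D4:**
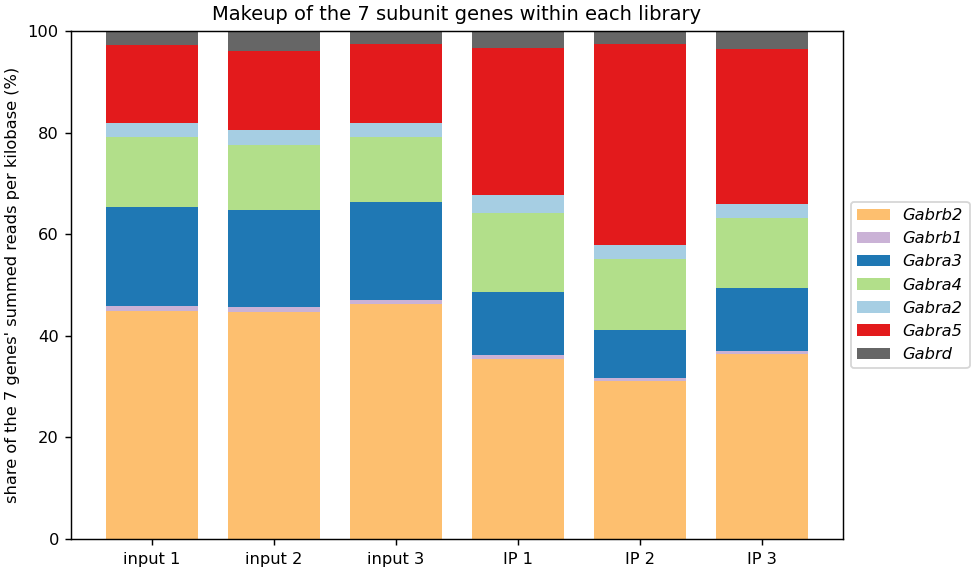
Share of each gene in the summed reads per kilobase of the 7 subunit genes, stacked to 100% for each of the 6 libraries. Gabra5 takes 15.3% to 15.7% in the inputs and 28.9% to 39.5% in the IP libraries, and Gabra3 and Gabrb2 take less in every IP library.

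Among the 4 alpha members alone, Gabra5 held 30.6% ± 0.773 of the reads per kilobase in input and 53.0% ± 6.37 in IP, and Gabra3 38.1% ± 0.368 and 18.6% ± 3.79 (SD, n = 3). Gabra4 held 25.9% ± 0.661 and 23.3% ± 2.17, and Gabra2 5.44% ± 0.272 and 5.05% ± 0.767. The proportions of the beta pair differed by less than the spread, with Gabrb2 at 98.0% ± 0.0997 in input and 98.1% ± 0.285 in IP (exact permutation p = 0.7). Over these 6 shares, the exact permutation p adjusted to 0.3 for Gabra5 and Gabra3. The 7 members made up 43.6% ± 0.570 of the reads per kilobase of the 19 family genes in input and 41.8% ± 1.58 in IP (exact permutation p = 0.2). Of the other 12 family genes, 7 were tested, with 0 higher and 2 lower and a median log2 fold change of 0.14. Over all genes tested, 44.8% were called in either direction.

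Of 25 listed genes for proteins that place and traffic the receptors, RNA was counted for 23. Of these, 8 rose and 3 fell, with a median log2 fold change of 0.15. Over all genes tested, 21.3% were called higher and 23.4% lower, a background that also applies to the lists below. Gephyrin, the scaffold gene Gphn, had 62.6 ± 8.84 CPM in input and 70.4 ± 3.84 in IP (SD, n = 3, edgeR adjusted p = 0.27). The adhesion gene Nlgn2 and the receptor partner Lhfpl4, both of inhibitory synapses, rose (log2 fold changes 0.36 and 0.48), and the receptor-associated Shisa7 fell (-0.50). Hap1, which takes part in returning receptors to the surface, rose from 27.4 ± 8.60 to 77.6 ± 28.1 CPM, and Gabarap, which binds gamma subunits, from 69.4 ± 6.87 to 129 ± 20.3 CPM. Plcl1 and Plcl2, phospholipase-related partners of beta subunits, fell (log2 fold changes -0.91 and -0.41). The call of Plcl2 was lost under 7 of 17 alternatives, among them those without input replicate 2 (-0.33), IP replicate 1 (-0.35) or IP replicate 2 (-0.35), and that of Shisa7 under 1.

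**Figure D5:**
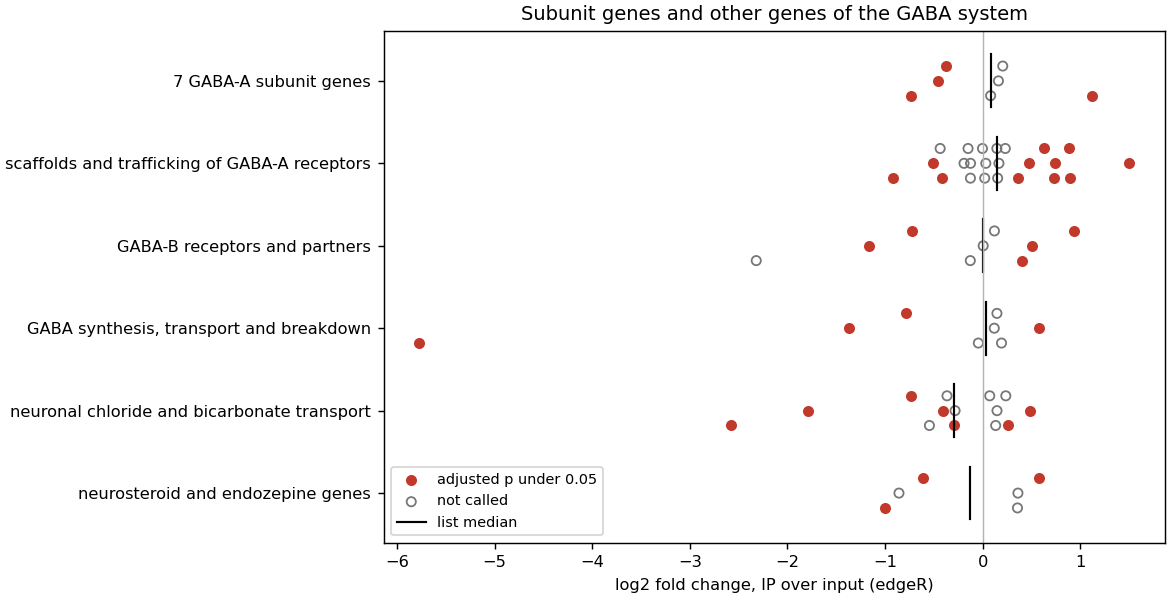
Log2 fold change, IP over input, of the tested genes in each list, red where the edgeR adjusted p was under 0.05, with the list median as a line. Members of each list lie on both sides of 0, and the medians run from -0.29 for chloride and bicarbonate transport to 0.15 for scaffolds and trafficking.

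Of 8 genes that make, move or break down GABA, 1 rose and 3 fell, against 44.8% of all genes tested called in either direction. The list's median log2 fold change was 0.04. Among those that fell were the GABA uptake transporter genes Slc6a11 of astrocytes, with a log2 fold change of -1.37, and Slc6a13, from 2.32 ± 0.232 to 0.0387 ± 0.0368 CPM (SD, n = 3). Slc6a13 had 87, 127 and 101 reads in input and 0, 3 and 5 in IP. Its IP level is thus near the limit of about 3 reads, and the size of its fall is uncertain. The vesicular transporter gene Slc32a1 of inhibitory neurons rose (log2 fold change 0.58, edgeR adjusted p = 0.031), although its groups overlapped and the call was lost under 7 of 17 alternatives. Among these were the fits without input replicate 2 (0.55), input replicate 3 (0.51), IP replicate 1 (0.41) or IP replicate 3 (0.53) for Slc32a1, while Gad2 passed without IP replicate 2 (0.35). Gad2, a GABA-synthesising enzyme gene and the most abundant of the list, had 611 ± 45.3 CPM in input and 698 ± 165 in IP (edgeR adjusted p = 0.29). Of the 14 interneuron markers listed, 5 rose and 1 fell, and their summed level ranged from 1254 to 1377 CPM in input and from 1428 to 1970 CPM in IP. Their part in the subunit levels was not tested.

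Among 9 genes of GABA-B receptors, the metabotropic GABA receptors, and their partners, 3 rose and 2 fell, around a median log2 fold change of 0.01. The called share of all genes tested was 44.8%. The receptor gene Gabbr1, the most abundant, rose from 356 ± 6.73 to 505 ± 16.8 CPM, while Gabbr2, its obligate partner, had 133 ± 14.2 and 121 ± 14.6 CPM (SD, n = 3, edgeR adjusted p = 0.40). The auxiliary subunit gene Kctd8 rose (log2 fold change 0.94) and Kctd16 fell (-1.16). The potassium channel genes Kcnj9 and Kcnj6 rose and fell, with log2 fold changes of 0.40 and -0.73. The call of Kcnj9 was lost under 7 of 17 alternatives, that of Kctd8 under 4 and that of Kcnj6 under 1. For Kcnj9 these took in every fit without 1 library (0.28 to 0.45) but that without IP replicate 1, and for Kctd8 those without input replicate 2 (0.72), input replicate 3 (0.93) or IP replicate 1 (0.69).

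Chloride gradients decide what an open GABA-A channel does to the cell. Of 14 chloride and bicarbonate genes, 2 rose and 5 fell, beside 44.8% of all genes tested called in either direction. Their median log2 fold change was -0.29. Slc12a5, the neuronal chloride exporter KCC2, had 325 ± 35.8 CPM in input and 342 ± 21.7 in IP (SD, n = 3, edgeR adjusted p = 0.57). The importer gene Slc12a2 fell from 80.7 ± 4.49 to 23.3 ± 4.77 CPM and the carbonic anhydrase gene Car2, abundant in oligodendrocytes, from 264 ± 13.6 to 44.3 ± 8.75 CPM. The regulatory kinase gene Wnk1 fell and Stk39 rose (log2 fold changes -0.73 and 0.48), as did the bicarbonate transporter gene Slc4a10 (0.26). The call of Slc4a10 was lost under 6 of 17 alternatives, among them those without input replicate 1 (0.25), input replicate 2 (0.20), IP replicate 1 (0.28) or IP replicate 3 (0.20), and that of Wnk1 under 2. The fall in oligodendrocyte markers (summed level 1420 to 1565 CPM in input, 167 to 189 CPM in IP) went with that of Car2 and was not tested as its source.

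Of 9 genes for neurosteroids and the endozepine peptide, 6 were tested, with 1 higher and 2 lower, where 44.8% of all genes tested were called. Dbi, the endozepine precursor gene, fell from 81.5 ± 15.8 to 40.7 ± 3.29 CPM (SD, n = 3), and the cholesterol transfer gene Star fell (log2 fold change -0.61), a call lost with the mean-based correction (-0.34). Srd5a3, named for its likeness to the steroid reductases, rose (0.58), a call lost without input replicate 1 (0.47) and without IP replicate 2 (0.54), and the steroid reductase gene Srd5a1 did not pass (0.36, edgeR adjusted p = 0.12).

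Over the 6 libraries, the genes whose log2 CPM followed each member most closely were sought among the other 174 tested genes of these lists and markers. Gabra5 was most like Nsf (Pearson r = 0.98), Gabra2 like Calb1 (r = 0.98), Gabrb1 like Cspg4 (r = 0.97), Gabra4 like Kctd8 (r = 0.95) and Gabrd like Lef1 (r = 0.78). These values describe 6 points that share library, depth and the split into input and IP.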

How the data were processed

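Cortex input and tagged-ribosome RNA (IP) were sequenced, 3 libraries each, grouped by their titles. The authors deposited raw counts of reads per gene symbol, unnormalised. The submitters' processing notes name STAR 2.0.0e, HTSeq and build mm10. The sources used here do not give HTSeq's version, its strand setting or the annotation. HTSeq's summary rows were left out. They include reads outside genes (16.7% to 18.1% of listed reads in input, 8.60% to 8.92% in IP) and reads matching several genes (8.12% to 9.83% and 1.77% to 1.91%).

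The test was edgeR 4.0.16 quasi-likelihood (R 4.3.3) with TMM scaling, filterByExpr, a group term and a two-sided Benjamini-Hochberg adjusted p under 0.05. CPM values use TMM-scaled totals. The fit was checked on simulated data. Exact permutation tests over libraries were used for shares and ratios. The length and GC correction was a robust loess (span 0.3) of each library's log2 CPM on merged exon length and on the GC content of the longest transcript, for the 14494 tested genes found in GENCODE M21. Genes of like length and GC were within 0.1 log10 units and 2 percentage points. Their median log2 fold change was -0.23 for Gabra2, -0.10 for Gabra4, -0.09 for Gabrb2 and 0.23 for Gabrd. Other alternatives were DESeq2 1.42.0, limma-voom (limma 3.58.1), other scalings and filters, a replicate block and leaving out each library.

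Replicate number equals sequencing lane in both groups, per the labels. Same-numbered libraries correlated at 0.13, 0.09 and 0.05 in their deviations from group means, and differently numbered ones at -0.08 to 0.01. The same-numbered pairs were thus the highest, while the main fit has a group term only. The index was the same for all inputs and another for all IPs, so index and group cannot be told apart. Separate animals are not stated, so the spread behind the p-values may be technical. The members and lists were chosen with earlier results of these data known. The genes named by rule are the 7 members, Htr4, and in each list the 2 highest and 2 lowest called genes and the most abundant. The gene most like each member and some cell type markers are named as well. Further partner genes, among them Gphn, Nlgn2, Lhfpl4, Plcl2, Gabbr2, Wnk1 and Srd5a1, were named outside this rule. Some genes that this rule takes in are not reported here.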

Additional observations from a re-analysis of the deposited data

How the results depend on the processing

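The call and direction of Gabra5 (log2 fold change 0.91 to 1.35) and of Gabra3 (-0.83 to -0.46) held under all 17 alternatives, and the replicate block changed no member's call (Gabra5 1.10, Gabra3 -0.74). With the length and GC correction, log2 fold changes were 0.38 for Gabra2, 0.25 for Gabra4, -0.10 for Gabrb1 and -0.18 for Gabrd. With the replicate block as well they were 0.38, 0.25, -0.11 and -0.17. With the mean-based correction, added after seeing the data, they were 0.58 for Gabra2, 0.50 for Gabra4, 0.0684 for Gabrb1 and -0.0183 for Gabrb2, with 5698 genes called higher and 2026 lower. With total counts they were 0.26 for Gabra4 and -0.36 for Gabrb1. The cause was not tested. Leaving out 1 library gave -0.51 to -0.35 for Gabrb1.

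Of the other GABA-A family genes, 4 were called with total counts, 1 with no filter, 1 with at least 1 CPM in 3 libraries, 5 with the length and GC correction (also with the replicate block and with the mean-based one), and 0 to 2 without 1 library. Called genes were 17 for scaffolds and 7 for GABA supply with the mean-based correction, 3 for GABA-B with the length and GC correction and 3 to 5 without 1 library, and 5 for neurosteroids with no filter. The share of Gabrd, IP minus input, was -0.0177 percentage points when taken of the whole family, and -0.114 to 0.490 without 1 library. That of Gabrb2 in the beta pair was -0.0436 to 0.239 without 1 library. Differences of counts under about 3 reads per library are below what this depth resolves. Among the named genes of the other lists, the log2 fold change of Gabbr2 changed sign (0.17 with the mean-based correction).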
